A study of Drosophila melanogaster with 18 samples.

Results

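The genes bowl, Sox14, retn and pdm2 encode transcription factors that bind DNA in a sequence-specific way. They were taken by symbol from lists of variants called in the RNA of Drosophila melanogaster embryos, and they are 4 of the 129 genes with a variant in those lists. The genes were selected on having a listed variant call, with the calls and their scores known, so their presence in a list and their scores are descriptions and carry no test. Each gene had 1 distinct variant, that is, 1 position with 1 pair of alleles, which makes 4 of 173 distinct variants. The variants of retn and pdm2 were in line sj266, those of bowl and Sox14 were in line sj440, and line sj461 had none in these genes.

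The series comes from a screen of mutant lines for genes that shape the muscles, with 6 lines and 18 samples of polyadenylated RNA from whole embryos. The lists of sj266 (2 samples), sj440 (3 samples) and sj461 (3 samples) were analysed here, and the other lines were not. In all lines, eggs were laid for 3 h at 25 °C and aged for 7 h, embryos were at stage 12, and homozygous embryos were hand-picked by means of a green fluorescent balancer, a chromosome that keeps a mutant one from recombining. The labels name each line by its number alone and give neither a mutagen, a mapped lesion nor a parental control. The labels give 2 replicate numbers per line, technical ones by the design text. In sj440 and sj461, 1 of these numbers covers 2 samples, which the titles number 1 and 2. The lists give 1 value per line and variant, so no value below has a replicate error, read depth is unknown, and lines were not tested against each other. A gene can be missing from a list because it was not expressed, was not covered or did not pass the authors' filter.

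Transcription factors of these families recognise short DNA sequences through a folded domain, and much of the rest of the protein serves contacts with other proteins. bowl carries zinc fingers of the odd-skipped family and is known for patterning of the embryonic gut and of leg joints. Sox14 belongs to the SoxC group, binds through an HMG box, and is known for the pruning of neuronal dendrites under the steroid hormone ecdysone. retn, also called dead ringer, binds through an ARID domain and is known for embryonic patterning, where it takes part in repression by Dorsal. pdm2 binds through a POU domain with a homeodomain, and with its relative nub it marks a time window of embryonic neuroblasts, the stem cells of the nervous system. In the embryo, the identity of single body wall muscles is set by combinations of such factors.

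The pdm2 deletion is shown in full because its sequence makes plain that the change shortens a repeat. The capitals mark 3 bases that the listed allele lacks, given at the first place where they fit; as the repeat is regular, the removal of any other copy gives the same allele. Both alleles are on the plus strand of BDGP6, the genome build of the lists, at chr2L:12660538-12660555, 5′ to 3′.
pdm2 reference allele: aCAGcagcagcagcagca
pdm2 listed allele: acagcagcagcagca
The window of 18 bases became 15, and the alanine codons within it went from 5 to 4.

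In bowl (FBgn0004893) the listed change was P167S, proline to serine at residue 167, in the protein of transcript FBtr0077490, whose first residue is 1. It lies in a coding exon on arm 2L at position 3780224, in a gene that spans 3771700 to 3784121. The codon changed from Ccg to Tcg, at base 499 of the coding sequence, so the first base of the codon was altered. Its quality, the variant caller's own score of the call, was 228. This is the highest score of the sj440 list, shared with variants in ds, NimC4, Lpin and CG30015, and the order of these 5 is not defined. The same score was also the highest of the sj461 list, held there by 1 variant, in ptc, and whether it is the most the score can reach is unknown. The next score down was 225, in Gdi. Of the other 67 variants of the line, 94.0% had a lower score (exact 95% interval 85.4 to 98.3, counting error only).

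In Sox14 (FBgn0005612) the listed change was A639V, alanine to valine at residue 639 of the protein of transcript FBtr0072157. It lies in a coding exon on arm 2R at position 23984925, in a gene that spans 23978801 to 23985177. The second base of the codon was altered, at base 1916 of the coding sequence. Its quality of 181 ranked 7 among the 68 variants of sj440, between Gdi (225) and sha (179). A lower score was held by 91.0% of the other variants (exact 95% interval 81.5 to 96.6). Thus both transcription factor genes of sj440 lay far above that list's median quality of 52, at the top of a list that reached down to 26.4.

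The changes in bowl and Sox14 were of the same base type, C to T on the strand with the sequence of the mRNA, which is a change of a G:C to an A:T pair. The sj440 list held 12 missense changes of a G:C to an A:T pair among 38 missense changes. In sj266 there were 6 among 13, and in sj461 12 among 44. Of the 12 in sj440, ds (228) and Gdi (225) had scores in the range of bowl and Sox14. The 8 others had scores of 49.4 or less. High scores were not limited to this base type. Other missense changes of sj440 scored 228 (Lpin and CG30015), 179 (sha) and 167 (Su(z)2). On the mRNA's strand 7 of the 12 in sj440 were C to T. Apart from bowl and Sox14, these were the changes in CG4415, CG15398, DIP-kappa, CG9525 and Unc-89. Missense changes of C to T on this strand numbered 0 among 13 in sj266 and 1 among 44 in sj461. On the BLOSUM62 scale, where a lower score marks an exchange that is rarer between related proteins, P167S scored -1 and A639V scored 0. The 38 missense changes of sj440 had a median of 0 and ran from -3 to 3. Of these, 5 were below -1, 9 at -1, 10 at 0 and 14 above 0. By this measure P167S lay below the line's median and A639V at it, and neither was among the 5 below -1.

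In retn (FBgn0004795) the listed change was an in-frame insertion of 6 bases that adds 2 codons, for a glycine and a valine. The window of residues 894 to 897 of the protein of transcript FBtr0072072 held 2 glycine-valine pairs in the reference and 3 in the listed allele. It lies in a coding exon on arm 2R at position 23653776, in a gene that spans 23632610 to 23654820, at bases 2680 to 2691 of the coding sequence. Its quality was 95, between Eaf (99) and CG11788 (90). It ranked 11 of the 38 variants of sj266, and 73.0% of the others had a lower score (exact 95% interval 55.9 to 86.2).

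In pdm2 (FBgn0004394) the listed change was the in-frame deletion of 3 bases shown above, which removes 1 alanine. The window covers residues 25 to 30 of the protein of transcript FBtr0080392, and the list places the change at bases 74 to 90 of the coding sequence, which leaves out the first base of the printed alleles, shared by both. It lies in a coding exon in a gene that spans 12657165 to 12686306 on arm 2L. Its quality of 36.3 ranked 31 of the 38 variants of sj266, between Gp210 (37.1) and Col4a1 (34.7). Only 18.9% of the other variants of that list had a lower score (exact 95% interval 7.96 to 35.2). retn thus lay above the line's median of 56 and pdm2 below it.

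**Figure D1:**
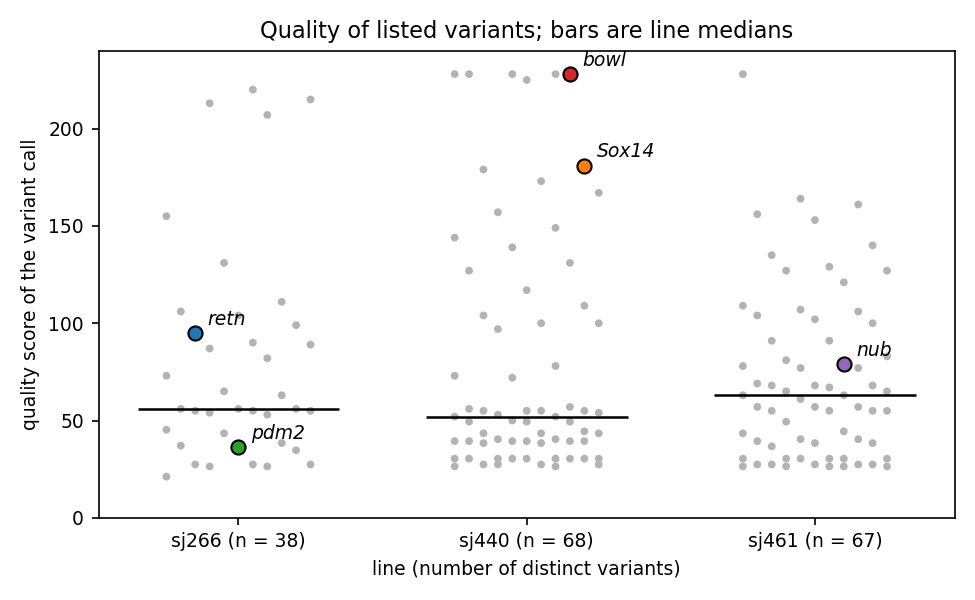
Quality score (vertical axis, caller's units) of every distinct variant in the lists of sj266, sj440 and sj461 (horizontal axis); each point is 1 variant, horizontal jitter carries no value, black bars are line medians, and coloured points are the 4 genes and nub, a relative of pdm2. bowl (228) and Sox14 (181) lie at the top of sj440, retn (95) above and pdm2 (36.3) below the median of sj266, and nub (79) above the median of sj461.

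Both genes of sj440 had missense changes, and both genes of sj266 had in-frame changes of length. In-frame insertions and deletions made up 26.3% of the variants of sj266 (10 of 38) and 13.2% of sj440 (9 of 68). Missense changes made up 34.2% of sj266 (13 of 38) and 55.9% of sj440 (38 of 68). These shares are the background of the split, which rests on 2 genes per line and is no result about these genes. In sj461, with none of the 4 genes, the shares were 65.7% missense (44 of 67) and 13.4% in-frame insertions and deletions (9 of 67). None of the 4 variants was a splice-site change or a change of a start or stop codon, and all were annotated as of moderate impact. Splice-site changes made up 39.5% of sj266 (15 of 38) and 29.4% of sj440 (20 of 68). Changes of a start or stop codon numbered 0 in sj266 and 1 in sj440. With 4 variants, their absence is no result about these genes.

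Among changes of length, retn was near the middle and pdm2 near the bottom by quality. Of the 10 insertions and deletions of sj266, 5 scored above retn and 4 below it, around a median of 97. Ranked within this class alone, retn was therefore above 44.4% of the others (exact 95% interval 13.7 to 78.8), against 73.0% among all variants of the line. For pdm2, 8 scored above and 1 below, which was an insertion in Piezo. Deletions were rare in these lists, with 4 among 28 changes of length, and pdm2 had the lowest score of them (36.3, against 99 in Eaf, 127 in cana and 149 in Mnn1). Equivalent forms of an insertion that are listed at nearby positions are counted separately in the 28. In both retn and pdm2 the changed bases lay beside a copy of themselves, as a repeat unit gained or lost. The listed alleles showed this for 12 of the 28, a count that is a minimum because many entries print no flanking bases.

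**Figure D2:**
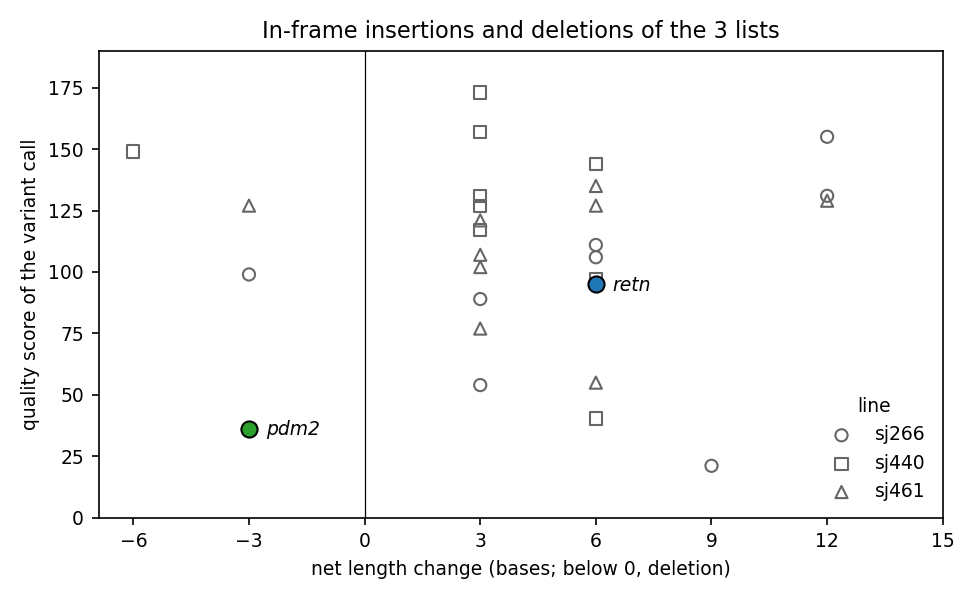
Net length change in bases (horizontal axis; below 0 is a deletion) against quality score (vertical axis) for the 28 in-frame insertions and deletions; circles are sj266, squares sj440 and triangles sj461, and filled circles are retn and pdm2. retn (6 bases gained, 95) sits among other insertions, and pdm2 (3 bases lost, 36.3) is the lowest of 4 deletions.

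Within the annotated gene, the changes in retn and Sox14 were close to the 3′ end and that in pdm2 was close to the 5′ end. Counted from the 5′ end, the variant lay at 96.0% of the gene's length in Sox14, at 95.3% in retn, at 68.6% in bowl and at 11.6% in pdm2. All 4 genes are on the plus strand. The gene's length includes introns, so a share of the gene does not give a place in the protein. In bowl, the change at 68.6% of the gene was at residue 167. In vertebrate SoxC proteins the HMG box lies towards the start of the protein and a stretch that activates transcription lies at its end, and in the pdm2 class of POU proteins the POU domain lies in the later part. Boundaries of the DNA-binding domains and protein lengths of these fly genes were not used here, so the distance of each residue from its domain is not given. The listed codons of all 4 variants translated to the listed residues. Both come from the same annotation, so this did not check the residues or their positions against a transcript or protein sequence.

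**Figure D3:**
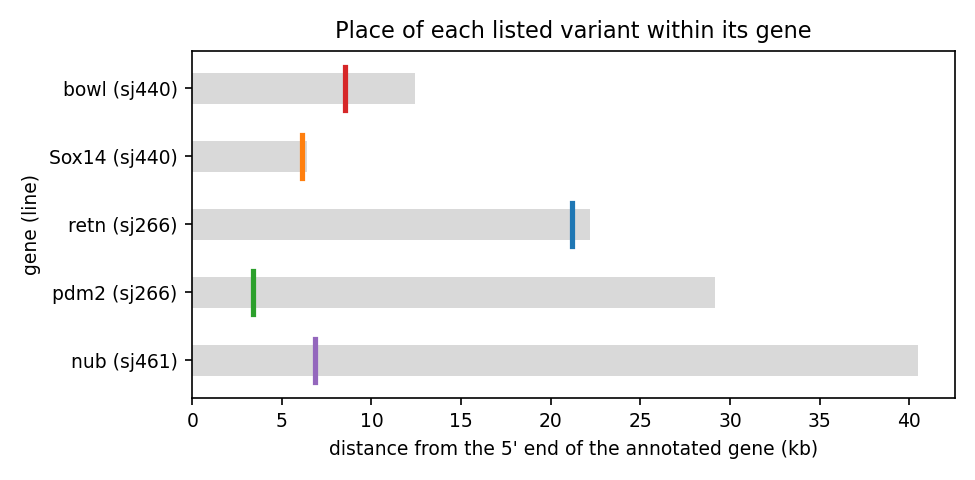
Grey bars give the length of each annotated gene in kb from its 5′ end (horizontal axis, introns included), and coloured ticks the place of its variant, for bowl, Sox14, retn, pdm2 and nub (vertical axis, with the line). The ticks of Sox14 and retn lie near the 3′ end (96.0% and 95.3% of the gene), and those of pdm2 and nub near the 5′ end (11.6% and 16.9%).

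None of the 4 variants had another variant of its line within 100 bp, which was also true of 76.3% of all listed variants (132 of 173). The nearest one in the same line lay 24850 bp from the Sox14 change, in Unc-89, a sarcomere gene. It lay 381634 bp away for retn (ord), 427614 bp for bowl (E23) and 613213 bp for pdm2 (CG44085). No gene of the 4 had a variant in a second line, as was the case for 89.1% of all listed genes (115 of 129). The entry for known variants was empty for all 173 variants, so the lists do not tell new changes from polymorphisms of the stock.

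Other genes of the same families were looked up, limited to those on chromosome 2 since all listed variants lie there. Of the 5508 protein-coding genes of this chromosome, 2.34% (129) had a listed variant. Of the odd-skipped family, bowl had a variant and odd, sob and drm had none (1 of 4). Of the Sox genes, Sox14 had one, and Sox15 and SoxN had none (1 of 3). Of the ARID genes, retn had one, and Bap170 and Kdm5 had none (1 of 3). Of the POU genes, pdm2 and nub had one each and pdm3 had none (2 of 3). Each family counts the gene it was built around, so these counts cannot be read against that share. The list of 12 muscle and mesoderm factors on chromosome 2 had none with a variant (0 of 12), which at a share of 2.34% is no result about these factors. Among them were twi and sna of the early mesoderm, Mef2, the activator of muscle differentiation, and the muscle identity genes ap, eve, Kr, kn and vg.

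nub (FBgn0085424) was the family member outside the 4 genes that had a listed variant. Its change was E158A, glutamate to alanine at residue 158 of transcript FBtr0112642, in sj461 (2L, position 12594470, in a gene that spans 12587625 to 12628135). Its quality of 79 ranked 22 of 67, between CG33225 (81) and ninaC (78), and the line's median was 63. The exchange scored -1 on the BLOSUM62 scale and was an A to C change on the mRNA's strand. nub and pdm2 are neighbours on 2L, with 29.0 kb and 0 protein-coding genes between them in the gene table. Their variants lay 66.1 kb apart and came from different lines, sj266 for pdm2 and sj461 for nub. No family member outside the 4 genes was listed in sj266 or sj440.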

How the data were processed

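Variants called from embryo RNA were read from the lists that the authors deposited, 1 per line; the line is the one named on the worksheet. The submitters' processing notes name the genome build BDGP6 and the tools STAR 2.5.4b and cutadapt 2.4, without saying what each did. The caller, its settings and the annotation program were not given in the sources used here. Each deposited quality score is the caller's own value, of unstated scale; all 173 variants had passed the authors' filter. Positions and residues are as the authors deposited them, counted from 1.

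Repeated entries were merged (202 became 173). Scores were ranked within a line, with exact (Clopper-Pearson) 95% intervals. These treat the other variants as independent draws, although each list was ranked whole and some variants lie within 100 bp of each other. The intervals are thus a rough guide only. No test was made, since members, lists and choices were made with earlier results of these data known. Gene intervals and names came from the RefSeq table of Release 6 plus ISO1 MT; 52 of 52 list genes matched, 1 by an older symbol. Named genes were all variants of the 4 genes, family members with a variant, and the next variants by score. Unc-89 and others named as nearest, C-to-T changes, high-scoring missense changes or deletions were chosen after their values were seen. The planned search for DNA-binding domains and alignment of family proteins were not run, as protein sequences were not used here. The ranking returned the known place of 100 of 100 simulated scores, which held no ties, so tied scores were not checked. Python 3.11.15, pandas 2.3.3, scipy 1.17.1, Biopython 1.88 and matplotlib 3.10.9 were used.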

Additional observations from a re-analysis of the deposited data

How the results depend on the processing

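No paired analysis was possible because each line has 1 list over its samples. For the same reason no replicate could be left out. The 4 variants became 2 (bowl and Sox14) at a quality of 100 or more, and 3 at 50 or more, where pdm2 was lost; without variants within 100 bp of another, or with entries not merged, they stayed 4. Ranked among missense or single-base changes, among all 3 lines, without clustered variants or over unmerged entries, the share of variants with a lower score was 91.9 to 97.1% for bowl, 86.5 to 93.6% for Sox14, 63.6 to 82.1% for retn and 15.4 to 22.1% for pdm2. Each lay within the interval of the value given above. These alternatives rank the same score among largely overlapping variants, so staying within the interval is no independent support. For retn and pdm2, missense and single-base changes are not their own class. Ranked among the in-frame insertions and deletions of sj266 alone, an alternative chosen after seeing the data, retn fell outside its interval, with 44.4%, and pdm2 had 11.1%, within its interval; this class has 9 other variants. Read depth and allele share are unknown.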
